A study of Mus musculus with 23 samples.

Results

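A set of 8 genes that convert, inactivate or answer to sex steroids in the testis, or that mark its hormone-producing Leydig cells, were followed through the first spermatogenic wave: Srd5a1, Akr1c14, Cyp19a1, Sult1e1, Insl3, Lhcgr, Nr5a1 and Esr1. They were taken by name from a raw count table of 27466 mouse genes, and the 8 genes passed the filter on low counts among 19255 genes that were tested. The tissue was testis of CD-1 mice, studied by poly(A) RNA-Seq in vivo from 6.5 to 36.5 dpp (days postpartum) and as explants of 6.5 dpp tissue kept at a gas-liquid interphase. Culture for 4 days (D4) was matched in age to 10.5 dpp, for 16 days (D16) to 22.5 dpp, and for 30 days (D30) to 36.5 dpp. At 6.5 dpp and D30 some tissue had been frozen by controlled slow freezing (CSF) and thawed, and the other tissue was fresh. Per the methods of the study, 12 explants were pooled for a cultured replicate after the necrotic centre was cut away, and the medium held serum replacement and retinol, with no gonadotropin or steroid named.

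The comparisons used 21 libraries. The 6.5 dpp stage had 1 library from fresh and 3 from CSF tissue, D30 had 3 fresh and 1 CSF library, and the others were fresh. There were 3 libraries for each of 10.5 dpp, 22.5 dpp and D4, and 2 for each of 36.5 dpp and D16. The libraries held 28351546 to 69029328 counts each. Of the 3 columns labelled 6.5 dpp fresh, replicates 2 and 3 were identical in every gene and were counted as 1 library. Replicate 1 of that group stood apart from the other 6.5 dpp libraries and was left out, with Cyp19a1 at 3.12 CPM (counts per 1000000) where the other 4 libraries held 0 to 0.0973 CPM. Nothing in the labels says that replicates of a stage came from separate animals or cultures, so p-values measure the spread between these libraries. The 2 libraries at 36.5 dpp and at D16 limit the precision there.

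Testosterone made in Leydig cells is either reduced to dihydrotestosterone by 5α-reductase (Srd5a1) and then to androstanediol by 3α-hydroxysteroid dehydrogenase (Akr1c14), the route that dominates in the immature testis, or turned into estradiol by aromatase (Cyp19a1). Estradiol acts through estrogen receptor α (Esr1) and is inactivated by estrogen sulfotransferase (Sult1e1), an enzyme of mature Leydig cells. Luteinizing hormone reaches Leydig cells through its receptor (Lhcgr), the orphan nuclear receptor Nr5a1 (steroidogenic factor 1) drives steroidogenic genes in Leydig and Sertoli cells, and Insl3 is a peptide hormone of Leydig cells that needs no steroid conversion.

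On the GRCm38 assembly the RefSeq annotation places Srd5a1 on chromosome 13 from 69573449 to 69611485 and Akr1c14 on chromosome 13 from 4048991 to 4090560. Cyp19a1 lies on chromosome 9 from 54165937 to 54268164, Sult1e1 on chromosome 5 from 87575968 to 87591611, and Insl3 on chromosome 8 from 71689252 to 71690577. Lhcgr lies on chromosome 17 from 88716384 to 88792059, Nr5a1 on chromosome 2 from 38692656 to 38714542, and Esr1 on chromosome 10 from 4611989 to 5005633. Of the 623 exon bases of Insl3, 404 (64.9%) also belong to Jak3 on the same strand, and the counting mode drops a read that falls in both genes, so the level of Insl3 is uncertain. Jak3, a cytokine receptor kinase, held 1.27 to 14.2 CPM over the 21 libraries, within a narrower range than Insl3. Cyp19a1 overlaps the predicted gene Gm51676, and Akr1c14 sits among similar Akr1c copies, so some of their reads could have been dropped or shared too.

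The letters AGGTCA are the core that NR5A1 and related nuclear receptors bind, which is why 3 promoters are shown: those of Sult1e1, Cyp19a1 and Insl3, the 3 members that were higher at 36.5 than at 22.5 dpp. Each run covers the 250 bases before a RefSeq transcript start (GRCm38.p6), read 5′ to 3′ on the gene's strand, with AGGTCA or its reverse complement TGACCT in capitals. Sult1e1 is chr5:87591612-87591861, minus strand, Cyp19a1 is chr9:54268165-54268414, minus strand, and Insl3 is chr8:71689002-71689251, plus strand.
Sult1e1: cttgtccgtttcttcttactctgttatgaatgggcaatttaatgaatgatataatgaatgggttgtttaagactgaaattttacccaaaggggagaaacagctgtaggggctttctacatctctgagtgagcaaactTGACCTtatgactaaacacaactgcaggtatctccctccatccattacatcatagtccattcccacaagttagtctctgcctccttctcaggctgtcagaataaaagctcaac
Cyp19a1: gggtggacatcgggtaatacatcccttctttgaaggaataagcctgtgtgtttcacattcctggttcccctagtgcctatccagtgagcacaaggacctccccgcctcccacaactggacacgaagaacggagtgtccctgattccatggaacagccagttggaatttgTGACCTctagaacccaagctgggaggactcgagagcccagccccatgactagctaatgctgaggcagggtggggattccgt
Insl3: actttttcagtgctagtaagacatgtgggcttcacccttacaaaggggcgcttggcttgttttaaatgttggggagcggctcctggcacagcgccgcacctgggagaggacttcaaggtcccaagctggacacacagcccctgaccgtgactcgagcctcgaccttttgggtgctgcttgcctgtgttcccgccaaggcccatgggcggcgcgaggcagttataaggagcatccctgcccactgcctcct
The match begins 113 bases before the start in Sult1e1 and 81 bases before it in this one of 3 Cyp19a1 starts, and there is none in the Insl3 window. Lhcgr also holds the letters, 122 bases before its start, while the windows of Srd5a1, Akr1c14 and Esr1 do not hold them. The table has no entry for Nr5a1. Over the 32851 windows of this length 14.0% hold these letters on either strand, and 4.08% hold the longer AAGGTCA or its reverse complement TGACCTT, which of the members' windows that of Sult1e1 holds. These matches are a description of letters, not of bound sites. Only these exact letters were searched, so a window without them, such as that of Insl3, may still hold variants of the site.

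Markers of the testis were checked first. The summed level of 5 Leydig genes (Star, Cyp11a1, Hsd3b1, Cyp17a1 and Fdx1) was 1032 to 1191 CPM at 10.5 dpp against 325 to 546 CPM at D4, 875 to 995 CPM at 22.5 dpp against 256 to 280 CPM at D16, and 1466 to 1855 CPM at 36.5 dpp against 343 to 603 CPM at D30. The groups of each pair did not overlap. Spermatid genes (Acrv1, Tnp1, Prm1 and Prm2) summed to between 13880 and 17390 CPM at 36.5 dpp and to between 267 and 1312 CPM at D30, and 7 Sertoli genes summed to 225 to 227 CPM against 1312 to 2248 CPM. Since the tissue is a mixture, fewer cells of a type and less RNA per cell cannot be told apart, and the part of these shifts in the results below was not tested. Genes of fetal Leydig cells (Thbs2 and Mc2r) summed to 109 to 113 CPM at 10.5 dpp, 53.8 to 63.5 CPM at D4, but to 4.15 to 8.84 CPM at 22.5 dpp against 17.3 to 22.7 CPM at D16, and 0.594 to 0.849 CPM at 36.5 dpp against 4.84 to 13.1 CPM at D30. Mc2r held at most 3 counts in each library at 22.5 and 36.5 dpp, so the sums there rest mainly on Thbs2. The 5 adult Leydig genes summed to between 164 and 402 CPM over all stages. Leydig progenitor genes summed to 34.6 to 38.1 CPM at 36.5 dpp and 233 to 390 CPM at D30, and macrophage genes to 57.5 to 79.3 CPM at 10.5 dpp against 12.1 to 17.0 CPM at D4, 85.0 to 124 CPM at 22.5 dpp against 87.3 to 91.4 CPM at D16, and 34.6 to 43.0 CPM at 36.5 dpp against 91.3 to 145 CPM at D30. Peritubular genes summed to 844 to 941 CPM at 10.5 dpp and 368.5 to 567 CPM at D4. At 22.5 dpp they summed to 284 to 460.5 CPM, and at D16 to 260 to 264 CPM. At 36.5 dpp the sum was 69.7 to 76.9 CPM, and at D30 235 to 473 CPM. Endothelial genes summed to 179 to 200 CPM at 10.5 dpp and 219 to 240 CPM at D4. For 22.5 dpp and D16 the sums were 37.65 to 59.75 and 195 to 259 CPM, and for 36.5 dpp and D30 17.1 to 20.0 and 130.5 to 174 CPM. Over all stages the sums lay between 586 and 1406 CPM for general germ cell, 7.36 and 30.1 CPM for adipocyte and 0.327 and 7.44 CPM for adrenal cortex genes. The adipocyte sums lay below the matched age at D4, D16 and D30 without overlap, and the adrenal cortex sums at D4 and D16. The part of these shifts in Esr1 and the other members was not tested either. Epididymal genes summed to at most 8.80 CPM, and Lcn5, Lcn8, Crisp1 and Adam7 held at most 3 counts in each library.

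**Figure D1:**
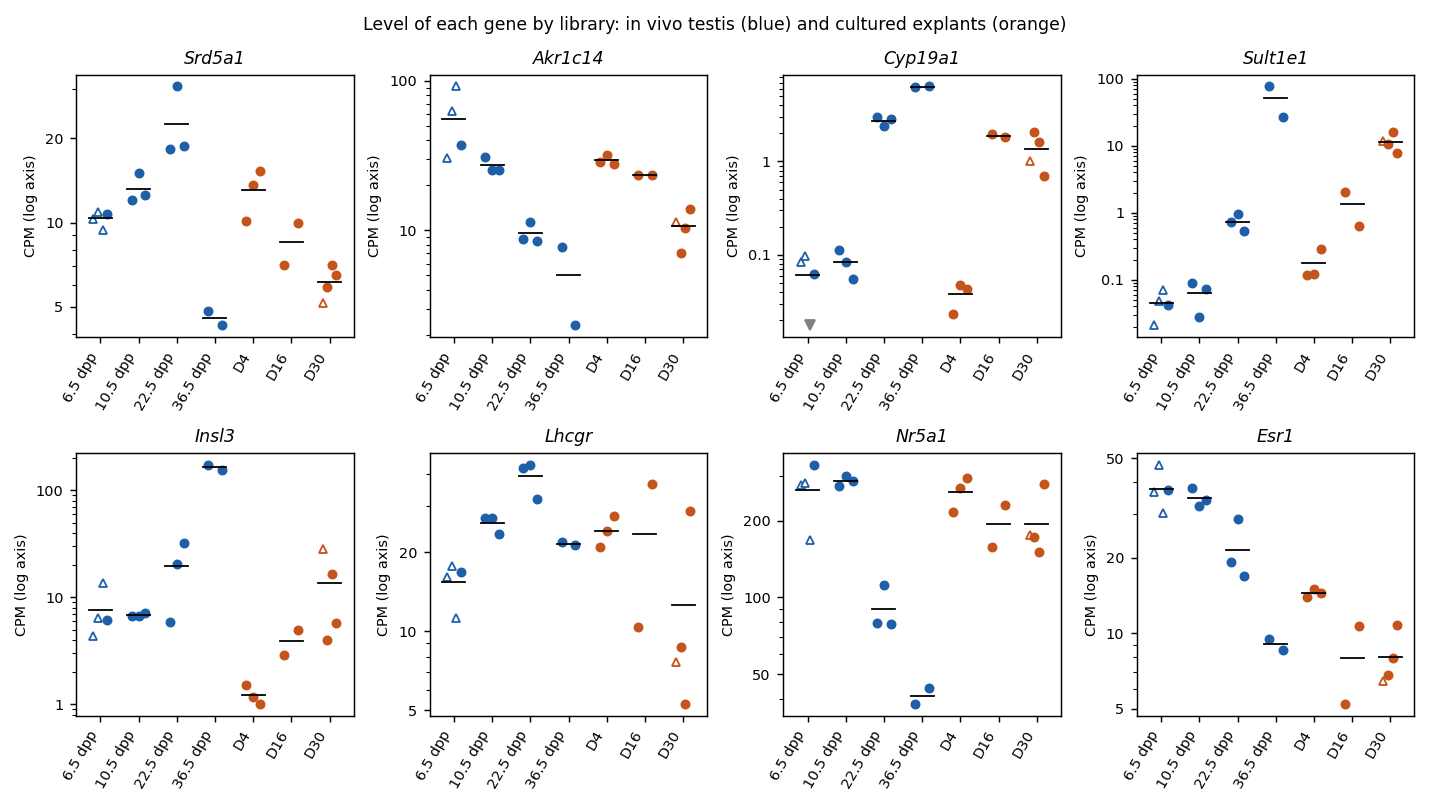
Level of the 8 genes in each of the 21 libraries (vertical log axis, CPM on the library total), by stage; filled circles are fresh tissue, open triangles CSF tissue, bars the mean of a stage, and the grey triangle a library with no Cyp19a1 count. Cyp19a1, Sult1e1 and Insl3 are highest at 36.5 dpp, Srd5a1 and Lhcgr at 22.5 dpp, and Akr1c14, Nr5a1 and Esr1 at 6.5 or 10.5 dpp.

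The enzymes of androgen reduction peaked and fell at different times. Srd5a1 held 18.3, 30.6 and 18.7 CPM at 22.5 dpp, its highest stage, above 12.0, 15.0 and 12.5 CPM at 10.5 dpp and 4.84 and 4.29 CPM at 36.5 dpp. At 6.5 dpp it held 10.8 CPM in the fresh and 10.3, 10.9 and 9.42 CPM in the CSF libraries. None of these groups overlapped: the gene was 2.07-fold higher at 22.5 than at 10.5 dpp (log2 fold change 1.05 ± 0.21 (SE), edgeR adjusted p = 0.000271) and then fell by 1.78 ± 0.24 on the log2 scale to 36.5 dpp (edgeR adjusted p = 2.21e-05). In culture Srd5a1 had no such peak. It held 10.1, 13.7 and 15.4 CPM at D4, 7.06 and 10.0 CPM at D16, and 5.87, 7.07, 6.52 and 5.17 CPM at D30. The D16 libraries lay below those at 22.5 dpp (log2 fold change -1.54 ± 0.24, edgeR adjusted p = 0.000282), whereas D4 overlapped 10.5 dpp (0.07 ± 0.20, edgeR adjusted p = 0.943). At D30 the 4 libraries lay above both 36.5 dpp libraries in CPM, but with TMM scaling the log2 difference was -0.20 ± 0.22 (edgeR adjusted p = 0.416), and with library totals as the scale it was 0.43 ± 0.25 (edgeR adjusted p = 0.130), so the direction differed with the scale.

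Akr1c14 was highest in the youngest testes and declined with age. It held 37.2 CPM in the fresh and 30.6, 62.3 and 91.4 CPM in the CSF libraries at 6.5 dpp, 31.1, 25.3 and 25.4 CPM at 10.5 dpp, 8.74, 11.5 and 8.53 CPM at 22.5 dpp, and 7.78 and 2.31 CPM at 36.5 dpp. The 3 CSF libraries at 6.5 dpp and the 2 libraries at 36.5 dpp were far apart among themselves. From 10.5 to 22.5 dpp the gene fell by 1.22 ± 0.40 on the log2 scale (edgeR adjusted p = 0.0126). Explants held 28.5, 32.1 and 27.8 CPM at D4 and 23.3 and 23.5 CPM at D16, overlapping 10.5 dpp at D4 and just below it at D16, and 7, 10.4, 14.0 and 11.3 CPM at D30. The D16 libraries did not overlap those at 22.5 dpp, but the difference missed the threshold (log2 1.14 ± 0.43, edgeR adjusted p = 0.0595) and passed it when library totals were the scale (log2 1.29 ± 0.42, edgeR adjusted p = 0.0343) or without 6.5 dpp CSF replicate 1 or 3 or either 36.5 dpp library (edgeR adjusted p = 0.0233 to 0.0431). At D30 the log2 difference from 36.5 dpp was 0.45 ± 0.43 (edgeR adjusted p = 0.366), and without 36.5 dpp replicate 1 it was 1.53 (edgeR adjusted p = 0.0184), while with library totals as the scale and all libraries kept it was 1.08 ± 0.43 (edgeR adjusted p = 0.0329). The in vivo step to 36.5 dpp (log2 -0.42 ± 0.45, edgeR adjusted p = 0.452) became a call without 36.5 dpp replicate 1 (log2 -1.51, edgeR adjusted p = 0.0335).

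Aromatase appeared after 10.5 dpp both in vivo and in culture. Cyp19a1 held 0 to 4 counts in a library at 6.5 dpp, 3 to 5 at 10.5 dpp and 1 to 3 at D4, which is at the limit of detection (0 to 0.112 CPM over these 3 stages). It then stood at 2.98, 2.37 and 2.88 CPM at 22.5 dpp and at 6.21 and 6.35 CPM at 36.5 dpp. The steps in vivo were 39.8-fold from 10.5 to 22.5 dpp (log2 5.31 ± 0.50, edgeR adjusted p = 9.58e-08) and 3.24-fold from 22.5 to 36.5 dpp (log2 1.69 ± 0.41, edgeR adjusted p = 0.00253). With library totals as the scale the later step was log2 1.2 ± 0.40 (edgeR adjusted p = 0.0160). Folds given with a log2 value and its SE here and below used TMM scaling unless another scale is named. Explants held 1.96 and 1.81 CPM at D16, against 6 counts in all at D4: the pooled level was 48.3 times that of D4, with a 95% exact interval of 21.7 to 133 for counting error only, and the edgeR adjusted p was 5.68e-07. At D30, with 2.08, 1.6 and 0.705 CPM in the fresh and 1.00 CPM in the CSF library, no further rise was called (log2 -0.44 ± 0.40 against D16, edgeR adjusted p = 0.816). The D16 libraries lay below those at 22.5 dpp without passing the test (log2 -0.70 ± 0.43, edgeR adjusted p = 0.228), and the D30 libraries lay 7.16-fold below 36.5 dpp (log2 -2.84 ± 0.38, edgeR adjusted p = 7.69e-06). Germ cells as well as Leydig cells are known to make aromatase. The spermatocyte genes Sycp3, Piwil1 and Spag6l summed to 34.6 to 98.6 CPM at 6.5 dpp, 10.5 dpp and D4, where Cyp19a1 was near 0, and to 315 to 1946 CPM at the other 4 stages, and their part in the Cyp19a1 levels was not tested.

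Sult1e1 had the largest ratio of highest to lowest stage mean among the 8 genes, with 1 or 2 counts in each library of its lowest stage. It held 0.0418 CPM in the fresh and 0.0208, 0.0487 and 0.0705 CPM in the CSF libraries at 6.5 dpp and 0.0898, 0.0278 and 0.0727 CPM at 10.5 dpp, all from 1 to 4 counts. It then stood at 0.739, 0.943 and 0.537 CPM at 22.5 dpp and at 76.8 and 27.3 CPM at 36.5 dpp. The last step was 99.1-fold (log2 6.63 ± 0.54, edgeR adjusted p = 9.25e-08), even though the 36.5 dpp libraries were far apart. With library totals as the scale this step was log2 6.12 ± 0.54 (edgeR adjusted p = 2.57e-07). The summed spermatid genes lay between 7.68 and 52.2 CPM at 22.5 dpp, between 13880 and 17390 CPM at 36.5 dpp and between 267 and 1312 CPM at D30, and Sult1e1 had r = 0.930 with Prm1 over the 21 libraries, and the part of spermatids in this result was not tested. In culture the gene was already counted at D4, with 0.116, 0.12 and 0.290 CPM, and was 4.61 times its pooled 6.5 dpp level (30 against 7 counts, 95% exact interval 1.98 to 12.4 for counting error only, edgeR adjusted p = 0.0408). That call was lost without any 1 of the 6.5 dpp libraries or without D4 replicate 3 (edgeR adjusted p = 0.0507 to 0.253). With 6.5 dpp fresh replicate 1 added, the D4 difference from 6.5 dpp was log2 0.09 (edgeR adjusted p = 0.957). Sult1e1 reached 2.04 and 0.634 CPM at D16 and 10.7, 15.8 and 7.86 CPM (fresh) and 11.6 CPM (CSF) at D30, so that D30 was 8.80-fold above D16 (log2 3.14 ± 0.52, edgeR adjusted p = 0.00471) and 6.96-fold below 36.5 dpp (log2 -2.80 ± 0.42, edgeR adjusted p = 2.07e-05). The D30 to D16 call was lost without D16 replicate 2 (log2 2.50, edgeR adjusted p = 0.0952), and the D16 to D4 call (log2 2.89 ± 0.54, edgeR adjusted p = 0.000607) without D16 replicate 1 (log2 1.79, edgeR adjusted p = 0.0767). At D4 and D16 the difference from the matched age did not pass the test (log2 1.53 ± 0.68, edgeR adjusted p = 0.221, and 0.70 ± 0.50, edgeR adjusted p = 0.312).

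The estrogen receptor gene had lower mean levels at later ages in vivo, and with TMM scaling it was called lower in culture at all 3 matched ages. Esr1 held 37.2 CPM in the fresh and 36.7, 47.0 and 30.3 CPM in the CSF libraries at 6.5 dpp, 37.9, 32.1 and 33.9 CPM at 10.5 dpp, 19.3, 28.5 and 16.9 CPM at 22.5 dpp, and 9.50 and 8.56 CPM at 36.5 dpp. Cultured tissue held 14.0, 15.0 and 14.5 CPM at D4, 5.23 and 10.7 CPM at D16, and 6.78, 7.98, 10.8 and 6.45 CPM at D30. Thus D4 was already below 6.5 and 10.5 dpp without overlap, by 2.55-fold and 2.25-fold (log2 -1.35 ± 0.23, edgeR adjusted p = 0.000334, and log2 -1.17 ± 0.24, edgeR adjusted p = 0.00371), and D16 was 3.00-fold below 22.5 dpp (log2 -1.59 ± 0.28, edgeR adjusted p = 0.000718). At D30 the CPM ranges overlapped those at 36.5 dpp. There the log2 difference was -0.82 ± 0.24 with TMM scaling (edgeR adjusted p = 0.00678) and -0.17 ± 0.28 with library totals as the scale (edgeR adjusted p = 0.586). With the compared groups alone in the fit the D16 and D30 differences missed the threshold (edgeR adjusted p = 0.0597 and 0.0706). From 6.5 to 10.5 dpp the change was not called (log2 -0.18 ± 0.22, edgeR adjusted p = 0.716). Nor was that from 10.5 to 22.5 dpp with TMM scaling (log2 -0.40 ± 0.23, edgeR adjusted p = 0.139), but it passed with library totals as the scale (log2 -0.68 ± 0.26, edgeR adjusted p = 0.0282). The in vivo step from 22.5 to 36.5 dpp (log2 -0.73 ± 0.27, edgeR adjusted p = 0.0299) was lost without 22.5 dpp replicate 2 or either 36.5 dpp library (edgeR adjusted p = 0.0901 to 0.127), with RLE factors (0.0959), with the compared groups alone (0.104) and by DESeq2 (0.0790). So was the step from D4 to D16 (log2 -0.82 ± 0.27, edgeR adjusted p = 0.0324), without D16 replicate 1 or any D4 library (edgeR adjusted p = 0.0528 to 0.574).

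Insl3, the Leydig peptide hormone, rose late in vivo and was already lower at D4 in culture. It held 6.18 CPM in the fresh and 4.37, 6.37 and 13.8 CPM in the CSF libraries at 6.5 dpp, 6.71, 6.70 and 7.17 CPM at 10.5 dpp, 5.89, 20.6 and 32.3 CPM at 22.5 dpp, and 174 and 157 CPM at 36.5 dpp. The 22.5 dpp libraries were far apart, and replicate 1 overlapped 6.5 dpp, while the last step to 36.5 dpp was 12.1-fold with no overlap (log2 3.6 ± 0.70, edgeR adjusted p = 0.000488). With library totals as the scale this last step was log2 3.08 ± 0.68 (edgeR adjusted p = 0.000855). The step from 10.5 to 22.5 dpp (log2 1.80 ± 0.63, edgeR adjusted p = 0.0200) was lost without any 1 of the 10.5 dpp libraries or without 22.5 dpp replicate 3 (edgeR adjusted p = 0.0502 to 0.138). Explants held 1.51, 1.17 and 1.01 CPM at D4, below every other library of the fit. This was 6.24-fold below the 6.5 dpp starting tissue (log2 -2.64 ± 0.65, edgeR adjusted p = 0.00751) and 5.24-fold below 10.5 dpp (log2 -2.39 ± 0.67, edgeR adjusted p = 0.0330). With 6.5 dpp fresh replicate 1 added, the difference from 6.5 dpp missed the threshold (log2 -2.36, edgeR adjusted p = 0.0718). With fresh libraries alone, which leaves 1 library at 6.5 dpp, it was log2 -2.27. Explants held 2.87 and 4.94 CPM at D16 and 3.98, 16.5 and 5.79 CPM (fresh) and 28.1 CPM (CSF) at D30. The D16 libraries were 5.57-fold below 22.5 dpp (log2 -2.48 ± 0.76, edgeR adjusted p = 0.0255) and the D30 libraries 19.0-fold below 36.5 dpp (log2 -4.25 ± 0.64, edgeR adjusted p = 2.41e-05). The D4 call was lost without any 1 of its 6 libraries (edgeR adjusted p = 0.0691 to 0.130) and the D16 call without either D16 library or 22.5 dpp replicate 3 (edgeR adjusted p = 0.105 to 0.127).

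The luteinizing hormone receptor gene was close to its in vivo level at D4, where Insl3 was lower. Lhcgr held 16.9 CPM in the fresh and 16.2, 17.7 and 11.2 CPM in the CSF libraries at 6.5 dpp, 27.0, 27.1 and 23.5 CPM at 10.5 dpp, 41.9, 43.2 and 31.9 CPM at 22.5 dpp, and 21.9 and 21.3 CPM at 36.5 dpp. None of the 3 in vivo steps passed the test, although the ranges of successive ages did not overlap. Without D30 fresh replicate 3 in the fit the step from 10.5 to 22.5 dpp passed (log2 0.88, edgeR adjusted p = 0.0191), as it did with the compared groups alone (log2 0.90, edgeR adjusted p = 0.000655). D4 held 21.0, 24.2 and 27.5 CPM, a log2 difference of -0.01 ± 0.45 from 10.5 dpp (edgeR adjusted p = 1). At D16 the libraries held 10.4 and 36.5 CPM, and at D30 they held 8.69, 5.30 and 28.7 CPM (fresh) and 7.61 CPM (CSF). One library at each of these stages thus stood well above the rest, D16 replicate 2 and D30 fresh replicate 3. The same libraries were high in Hsd3b6, the 3β-hydroxysteroid dehydrogenase of adult Leydig cells, with 27.9 against 10.2 CPM at D16 and 26.6 against 6.45 to 8.38 CPM at D30. D30 fresh replicate 3 was also the highest of its stage in Cyp11a1 (151 against 54.9 to 62.5 CPM) and Nr5a1 (279 against 151 to 176 CPM). Its Lhcgr was 19.1% of Cyp11a1 counts, against 8.47 to 15.1% in the rest of D30. In Insl3 this library was not the highest of its stage, and in Cyp19a1 (0.705 CPM) it was the lowest. D30 was 2.73-fold below 36.5 dpp in Lhcgr (log2 -1.45 ± 0.47, edgeR adjusted p = 0.0110), a call that was lost with library totals as the scale (log2 -0.78 ± 0.49, edgeR adjusted p = 0.164) or with the compared groups alone (edgeR adjusted p = 0.0735). Against D16 the log2 difference was -0.89 ± 0.47 (edgeR adjusted p = 0.509) with D30 fresh replicate 3 and -1.64 without it (edgeR adjusted p = 0.0139).

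Nr5a1 was the one member called higher in culture than in vivo at a matched age. It held 331 CPM in the fresh and 277, 281 and 168 CPM in the CSF libraries at 6.5 dpp, 274, 298 and 286 CPM at 10.5 dpp, 79.6, 112 and 78.7 CPM at 22.5 dpp, and 38.3 and 44.1 CPM at 36.5 dpp. The drop between 10.5 and 22.5 dpp was 2.61-fold (log2 -1.38 ± 0.22, edgeR adjusted p = 4.40e-05). Explants held 217, 268 and 293 CPM at D4, 158 and 230 CPM at D16, and 172, 151 and 279 CPM (fresh) and 176 CPM (CSF) at D30. The D4 and D30 ranges overlapped that of 10.5 dpp, and both D16 libraries lay below it. Against the matched age explants were 1.94-fold higher at D16 (log2 0.95 ± 0.24, edgeR adjusted p = 0.0106) and 3.01-fold higher at D30 (log2 1.59 ± 0.25, edgeR adjusted p = 3.73e-05), with no overlap in either case. The D16 call was lost without D16 replicate 2 (log2 0.69, edgeR adjusted p = 0.190) or with the compared groups alone (edgeR adjusted p = 0.0523). In vivo the step from 22.5 to 36.5 dpp just missed the threshold (log2 -0.61 ± 0.25, edgeR adjusted p = 0.0514) and passed it without 6.5 dpp fresh replicate 2 or CSF replicate 3, either D16 library or D30 fresh replicate 3 (edgeR adjusted p = 0.0252 to 0.0475) or with library totals as the scale (log2 -1.13, edgeR adjusted p = 0.00304). Sertoli cells also express Nr5a1. The summed Sertoli genes moved the same way, at 584 to 920 CPM at 22.5 dpp and 1276 to 1779 CPM at D16, and 225 to 227 CPM at 36.5 dpp and 1312 to 2248 CPM at D30, and their part in this result was not tested.

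Against the matched age, then, 2 of the 8 genes were called lower at D4 and 0 higher, where 3.18% of all genes tested were called lower and 4.92% higher (adjusted p under 0.05). At D16, 3 genes (Srd5a1, Insl3 and Esr1) were called lower and 1 (Nr5a1) higher, beside 11.8% and 14% of all genes. At D30, 5 genes (Cyp19a1, Sult1e1, Insl3, Lhcgr and Esr1) were called lower and 1 (Nr5a1) higher, beside 35% and 32.4% of all genes. The median log2 fold change of the 8 genes was -0.03 at D4, -0.80 at D16 and -1.13 at D30, beside -0.01, -0.08 and -0.03 for all genes. With library totals in place of TMM factors, 3 members (Cyp19a1, Sult1e1 and Insl3) were called lower at D30 and 2 (Nr5a1 and Akr1c14) higher, with a member median of -0.48, and at D16 Akr1c14 joined Nr5a1 as higher. With RLE factors the D30 calls were 5 lower and 1 higher, with a member median of -1.39. With library totals the median of all genes at D30 moved to 0.60, and with RLE factors to -0.29. Of all genes called at D30, 48.0% were higher with TMM factors, 65.8% with library totals and 40.0% with RLE factors. The same shares were 54.3%, 68.1% and 43.9% at D16 and 60.7%, 50.1% and 57.7% at D4. With 6.5 dpp fresh replicate 1 added back to the fit, 0 members were called at D4 and 2 at D16, and the share of all genes called there is not given here. No called direction of a member turned under these scalings.

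**Figure D2:**
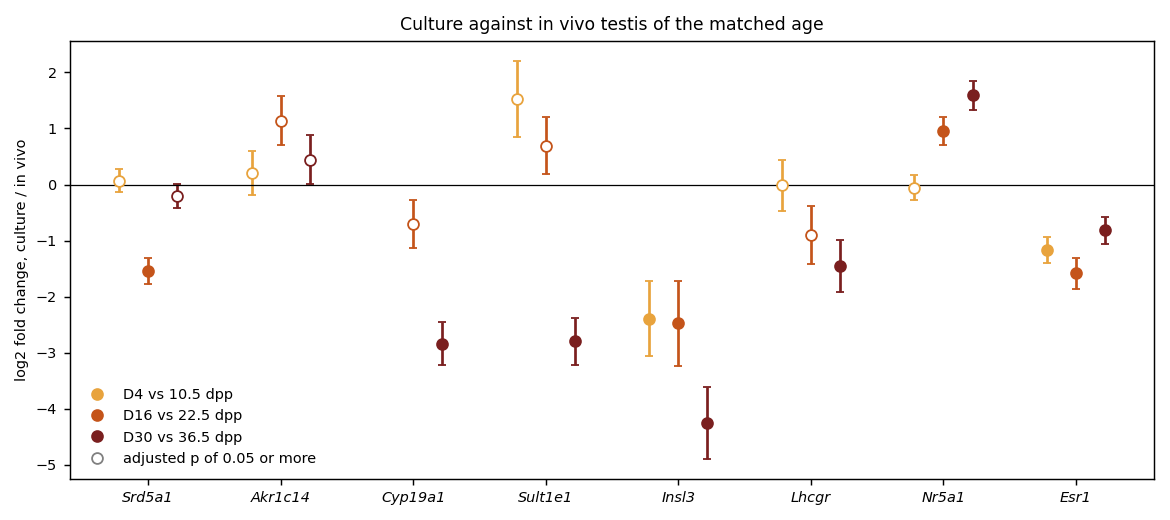
Log2 fold change (vertical axis, culture over in vivo) of each gene at D4, D16 and D30 against the matched age, with its standard error as the bar and filled points for an adjusted p under 0.05. Cyp19a1 at D4 is not drawn because its D4 libraries held 1 to 3 counts. Insl3 and Esr1 are below 0 at all 3 ages, Cyp19a1, Sult1e1 and Lhcgr are called lower at D30, and Nr5a1 is above 0 at D16 and D30.

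Along the in vivo course 0 of the 8 genes were called from 6.5 to 10.5 dpp, where 1.14% of all genes were called by edgeR. At an unadjusted p under 0.05, 1 member (Akr1c14) passed, and DESeq2 called 0. From 10.5 to 22.5 dpp 6 were called beside 61.5% of all genes: Srd5a1, Cyp19a1, Sult1e1 and Insl3 were higher and Akr1c14 and Nr5a1 lower. From 22.5 to 36.5 dpp 5 were called beside 50.7% of all genes, with Cyp19a1, Sult1e1 and Insl3 higher and Srd5a1 and Esr1 lower. In culture 3 were called from 6.5 dpp to D4 beside 20.9% of all genes, 3 from D4 to D16 beside 23.9%, and 1 (Sult1e1) from D16 to D30 beside 1.79%. Of all genes called, 54.6% were higher from 10.5 to 22.5 dpp and 45.9% from 22.5 to 36.5 dpp, against 43.8% and 27.9% with library totals, where the medians of all genes were -0.23 and -0.63, and 57.2% and 56.0% with RLE factors. From 6.5 to 10.5 dpp the share was 59.1%, and 69.2% with library totals. Sult1e1 was thus called higher at each of the 3 steps in culture and at the later 2 of the 3 steps in vivo. Each of its 3 culture calls was lost without at least 1 single library of the groups compared, and with 6.5 dpp fresh replicate 1 added.

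Whether the culture effect itself changed with time was tested as a difference between matched contrasts. Between D4 and D16, 1 member was called beside 9.61% of all genes: the effect on Srd5a1 was 1.61 ± 0.31 log2 units lower at D16 (edgeR adjusted p = 0.00459). For Nr5a1 the difference missed the threshold (1.01 ± 0.33, edgeR adjusted p = 0.0600) and passed it without 22.5 dpp replicate 2, 6.5 dpp CSF replicate 3, D16 replicate 1 or D30 fresh replicate 3 (edgeR adjusted p = 0.0254 to 0.0397). Between D4 and D30, 2 were called beside 46.4%: the effect on Sult1e1 was 4.33 ± 0.80 log2 units lower at D30 (edgeR adjusted p = 0.000376) and that on Nr5a1 was 1.65 ± 0.33 log2 units higher (edgeR adjusted p = 0.000715). Between D16 and D30, 3 were called beside 20.1%. Sult1e1 (log2 difference -3.49 ± 0.65, edgeR adjusted p = 0.00163) and Cyp19a1 (-2.14 ± 0.57, edgeR adjusted p = 0.0149) had a lower effect at D30 than at D16, and Srd5a1 (1.34 ± 0.32, edgeR adjusted p = 0.00875) a higher one. Without D16 replicate 1 the last 2 of these were lost (Cyp19a1 edgeR adjusted p = 0.0649, Srd5a1 edgeR adjusted p = 0.0743). For Insl3 the effect did not pass as different between D4 and D30 (log2 difference -1.86 ± 0.91, edgeR adjusted p = 0.101) but did so without the D30 CSF library (-2.46, edgeR adjusted p = 0.0266), and that on Lhcgr (-1.44 ± 0.66, edgeR adjusted p = 0.0810) did so without D30 fresh replicate 3 (-2.19, edgeR adjusted p = 0.00126). With library totals the share of called genes that were higher went from 54.7% to 73.2% for D16 against D4, from 55.5% to 79.0% for D30 against D4, and from 57.0% to 82.1% for D30 against D16, and 5 members were called in the last.

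Freezing was tested over 6.5 dpp and D30 together, adjusted for stage. By edgeR 0 of the 8 genes and 0% of all genes were called, and 0 members and 1261 genes had an unadjusted p under 0.05, while DESeq2 called 0 members and 4 genes. The largest log2 difference among the members, CSF over fresh, was that of Insl3, at 1.06 ± 0.53 (edgeR adjusted p = 0.648). Its CSF library was the highest of 4 at D30 and its 3 CSF libraries lay on both sides of the fresh one at 6.5 dpp. With 1 fresh library at 6.5 dpp and 1 CSF library at D30, a difference of this size could not be separated from the spread.

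To set the genes against a steroidogenic gene in the same library, their counts were divided by those of Cyp11a1, the side-chain cleavage enzyme that opens steroid synthesis. Cyp11a1 itself held 175 to 245 CPM at 10.5 dpp and 67.7 to 139 CPM at D4, 255 to 304 CPM at 22.5 dpp and 47.1 to 61.1 CPM at D16, and 376 to 476 CPM at 36.5 dpp and 54.9 to 151 CPM at D30. On this scale Insl3 was 3.44 ± 0.61% of Cyp11a1 (SD, n = 3) at 10.5 dpp and 1.28 ± 0.82% (n = 3) at D4, so the drop at D4 was larger than that of Cyp11a1. At D16 it was 7.08 ± 1.42% (n = 2) beside 6.89 ± 4.47% (n = 3) at 22.5 dpp, and at D30 22.1 ± 21.8% (n = 4) beside 39.1 ± 3.67% (n = 2) at 36.5 dpp. Sult1e1 was 17.6 ± 8.69% at D30 and 11.7 ± 6.29% at 36.5 dpp, and Cyp19a1 was 2.12 ± 1.32% and 1.5 ± 0.27%, with overlapping ranges in both genes. Esr1 was 10.9 ± 2.50% at D30 and 2.14 ± 0.20% at 36.5 dpp, without overlap, while its CPM overlapped. Lhcgr was 14.2 ± 4.39% and 5.14 ± 0.75%, and Nr5a1 262 ± 60.9% and 9.89 ± 2.59%. The ratio shows unequal change between a gene and Cyp11a1, not which of them changed.

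**Figure D3:**
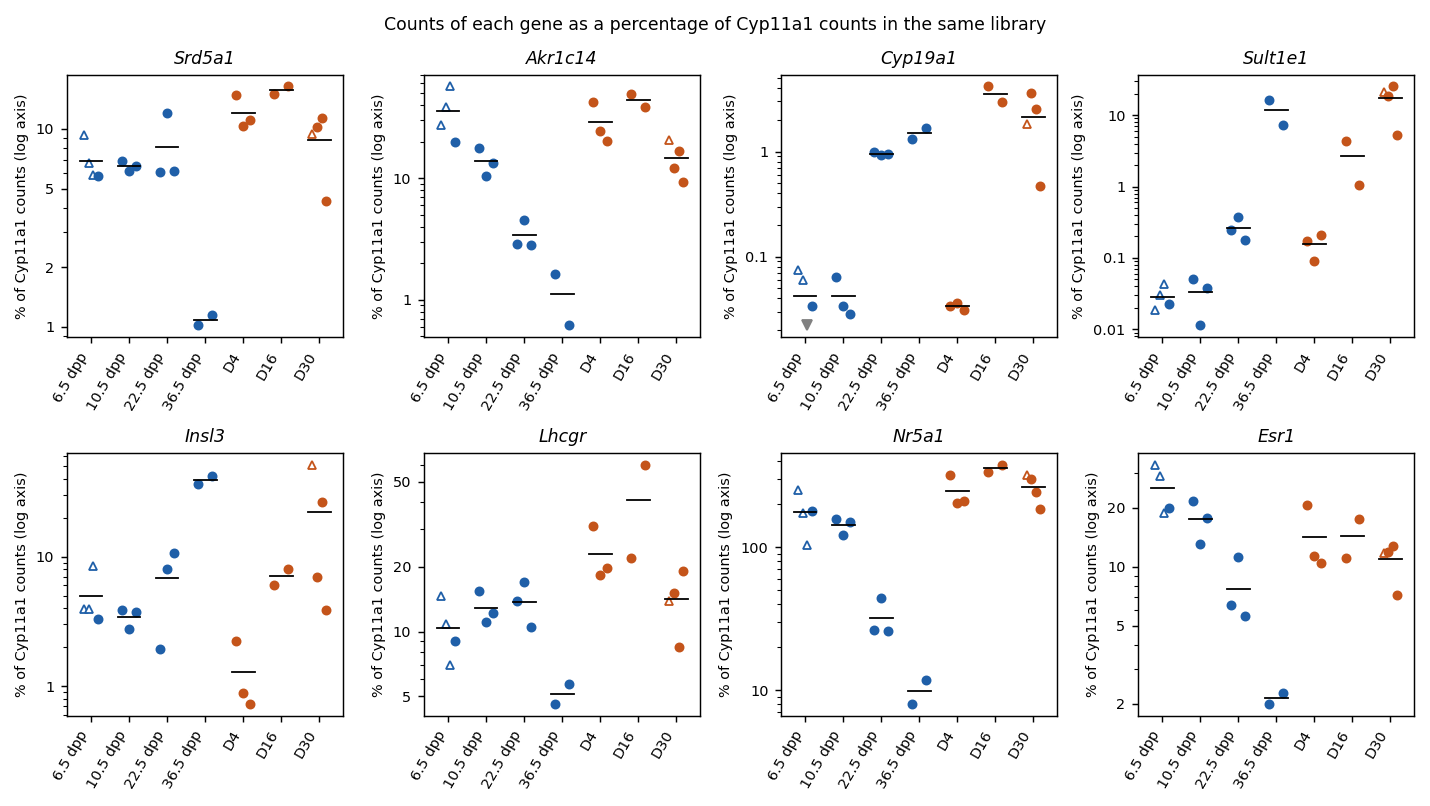
Counts of each gene as a percentage of Cyp11a1 counts in the same library (vertical log axis), by stage, with symbols as in the plot of levels by library. At D30 the percentages of Srd5a1, Akr1c14, Lhcgr, Nr5a1 and Esr1 all lie above those at 36.5 dpp, whereas those of Cyp19a1, Sult1e1 and Insl3 overlap them.

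Per kilobase of exon, as RPKM, the order of the genes changed with age. At 6.5 dpp Nr5a1 was the most abundant of the 8, at 62.3 RPKM, ahead of Akr1c14 at 17.1 and Insl3 at 12.3 RPKM, and Cyp19a1 at 0.0134 RPKM was the least. At 36.5 dpp Insl3 led with 266 RPKM, followed by Sult1e1 with 41.9 and Nr5a1 with 9.71 RPKM, and Esr1 with 0.661 RPKM was last. D30 explants had Nr5a1 first at 45.9 RPKM, then Insl3 at 21.8 and Sult1e1 at 9.26 RPKM, and Cyp19a1 last at 0.298 RPKM. Since the exon length of Insl3 counts the bases shared with Jak3, its RPKM may be too low.

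The 3 genes whose log2 CPM followed each member most closely over the 21 libraries were found by Pearson's r among the 19255 genes tested. The libraries share stages and germ cell content, so these values describe the data set and carry no test. Nr5a1 was followed by Pgghg (r = 0.994), Gata4 (0.991) and Rara (0.991), of which Gata4 encodes a transcription factor of Sertoli and Leydig cells. Cyp19a1 was followed by Fam184a (0.985), Glt1d1 (0.984) and Comp (0.984), and Sult1e1 by Slamf9 (0.976), Gapt (0.969) and Lcn2 (0.966). Akr1c14 went with Itm2a (0.970), Cyp2j6 (0.963) and Fam114a1 (0.963), and Esr1 with Plin1 (0.955), the lipid droplet coat protein perilipin, Kcnk3 (0.949) and Kcns2 (0.948). The closest partners of the other members were looser: Gfer (0.879), Sult2b1 (0.875) and Ptprn2 (0.871) for Insl3, Helq (0.861), Zfp667 (0.859) and Parp12 (0.856) for Srd5a1, and Slc7a8 (0.826), Kcnd2 (0.803) and Lyve1 (0.802) for Lhcgr. Among the members themselves, Cyp19a1 and Sult1e1 had r = 0.815, Insl3 and Lhcgr r = -0.07, and Nr5a1 and Insl3 r = -0.78.

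Other genes of the same pathways were counted in 7 lists. Of all genes tested, 4.92% were called higher and 3.18% lower at D4. The shares were 14% and 11.8% at D16, and 32.4% and 35% at D30. A count near these shares does not set a list apart. The 6 genes of androgen synthesis upstream of the member enzymes were mostly lower in culture, with 3 lower and 1 higher at D4, 5 lower at D16 and 6 lower at D30 by TMM scaling (4 with library totals), and list medians of log2 -0.98, -1.81 and -3.17. Cyp17a1, which makes the androgen precursors, had the smallest p at each age: it held 334 to 376 CPM at 10.5 dpp and 10.8 to 18 CPM at D4, and its log2 fold changes were -4.52 ± 0.32, -4.64 ± 0.38 and -5.23 ± 0.30 (edgeR adjusted p = 7.34e-08, 6.56e-07 and 7.30e-09). The gene called higher at D4 was Hsd3b6 (0.606 to 1.47 CPM at 10.5 dpp, 3.41 to 5.88 CPM at D4, log2 2.51 ± 0.50, edgeR adjusted p = 0.00315). Of 17 other genes of steroid reduction and oxidation, 12 were tested: 1 was higher and 1 lower at D4, 5 and 2 at D16 (3 and 2 with RLE factors), and 6 and 2 at D30, with medians of log2 0.12, 0.54 and 0.41 (at D30 0.15 with RLE factors and 1.05 with library totals). The second 5α-reductase gene, Srd5a2, was the lower one at D4 (0.334 to 0.673 CPM at 10.5 dpp, 0.0929 to 0.101 CPM at D4, log2 -2.17 ± 0.58, edgeR adjusted p = 0.0244) and held 3 counts in all at D16 against 39 at 22.5 dpp, a ratio of 0.104 (95% exact interval 0.0205 to 0.326, counting error only). Dhrs9, a retinol and steroid dehydrogenase, held 61 counts at D4 and 1 at 10.5 dpp, a ratio of 53.7 (9.29 to 2157). Hsd17b1, which makes estradiol from estrone, was higher at D16 (log2 3.26 ± 0.41, edgeR adjusted p = 3.96e-05), and at D30 Hsd17b11 was higher (log2 1.98 ± 0.25, edgeR adjusted p = 3.19e-06) and Hsd17b2, which inactivates estradiol and testosterone, lower (log2 -3.53 ± 0.60, edgeR adjusted p = 7.45e-05).

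In the sulfate list 7 of 8 genes were tested, and 1 was higher at D4, 4 at D16 and 4 at D30, where 1 was lower (medians of log2 -0.13, 0.87 and 0.79, the last 0.53 with RLE factors and 1.43 with library totals). Slc10a6, a carrier of sulfated steroids, led at D4 (log2 1.96 ± 0.32, edgeR adjusted p = 0.000608), Sumf1, the activator of sulfatases, at D16 and D30 (log2 1.00 ± 0.20 and 1.72 ± 0.21, edgeR adjusted p = 0.00222 and 2.75e-06), and the cholesterol sulfotransferase Sult2b1 was the lower one at D30 (log2 -2.21 ± 0.32, edgeR adjusted p = 1.36e-05). Among the 8 estrogen receptor partners 2 were higher and 1 lower at D4, and 3 were higher at D16 and at D30 (medians of log2 0.23, 0.68 and 0.61, or at D30 0.59 with floor genes at their bound, 0.35 with RLE factors and 1.25 with library totals). Greb1, an estrogen-responsive gene, was higher at D4 (log2 1.87 ± 0.48, edgeR adjusted p = 0.0211) and the membrane estrogen receptor Gper1 lower (log2 -1.18 ± 0.31, edgeR adjusted p = 0.0233). The progesterone receptor gene Pgr held 81 counts at D16 and 5 at 22.5 dpp, a ratio of 21.8 (8.97 to 68.9), and Gper1 held 181 counts at D30 and 3 at 36.5 dpp, a ratio of 27.3 (9.19 to 134). In the relaxin family, which includes Insl3's receptor Rxfp2, 5 of 6 genes were tested (medians of log2 -0.27, -0.84 and -1.28, the last -1.55 with RLE factors and -0.67 with library totals). By edgeR 0 were called at D4, Rxfp1 was higher at D16 (log2 2.64 ± 0.72, edgeR adjusted p = 0.0147), and 3 were lower at D30 (1 lower and 1 higher with library totals), with Insl5 leading (log2 -2.08 ± 0.48, edgeR adjusted p = 0.000991).

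For signalling from the luteinizing hormone receptor, 12 genes were tested: 1 was lower at D4, 3 were higher and 1 lower at D16 (1 and 1 with RLE factors), and 5 were higher and 4 lower at D30 (5 and 6 with RLE factors). Beside the D30 counts, 32.4% of all genes tested were called higher and 35% lower. The list medians, log2 0.01, 0.06 and -0.12, changed sign with the scaling at each age: -0.01, -0.04 and -0.38 with RLE factors and -0.08, 0.21 and 0.52 with library totals. Pde8b, a phosphodiesterase that breaks down cyclic AMP in Leydig cells, was lower at D4 (log2 -1.23 ± 0.24, edgeR adjusted p = 0.00312) and its relative Pde8a at D16 (log2 -1.11 ± 0.34, edgeR adjusted p = 0.0242). Gnas, which encodes the stimulatory G protein, was higher at D16 (log2 0.82 ± 0.22, edgeR adjusted p = 0.0152) and the protein kinase A subunit gene Prkacb at D30 (log2 1.46 ± 0.23, edgeR adjusted p = 2.86e-05). Nr4a1, an early gene that luteinizing hormone induces, was lower at D30, with 8.87 to 14.1 CPM against 32.3 and 53.7 CPM (log2 -2.50 ± 0.26, edgeR adjusted p = 6.76e-07). Of the 10 partners and regulators of Nr5a1, 1 was higher and 1 lower at D4, 5 were higher and 0 lower at D16, and 9 were higher and 0 lower at D30 (edgeR, 8 with RLE factors and 10 with library totals), with list medians of log2 -0.18, 0.82 and 1.54. Nr0b1, a repressor of Nr5a1, was the leading gene at D4 and D30 (log2 0.87 ± 0.20 and 2.22 ± 0.24, edgeR adjusted p = 0.00951 and 7.08e-07), Gata6 at D16 (log2 1.53 ± 0.24, edgeR adjusted p = 0.000286), and Cbx2 was lower at D4 (log2 -0.79 ± 0.22, edgeR adjusted p = 0.0357).

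**Figure D4:**
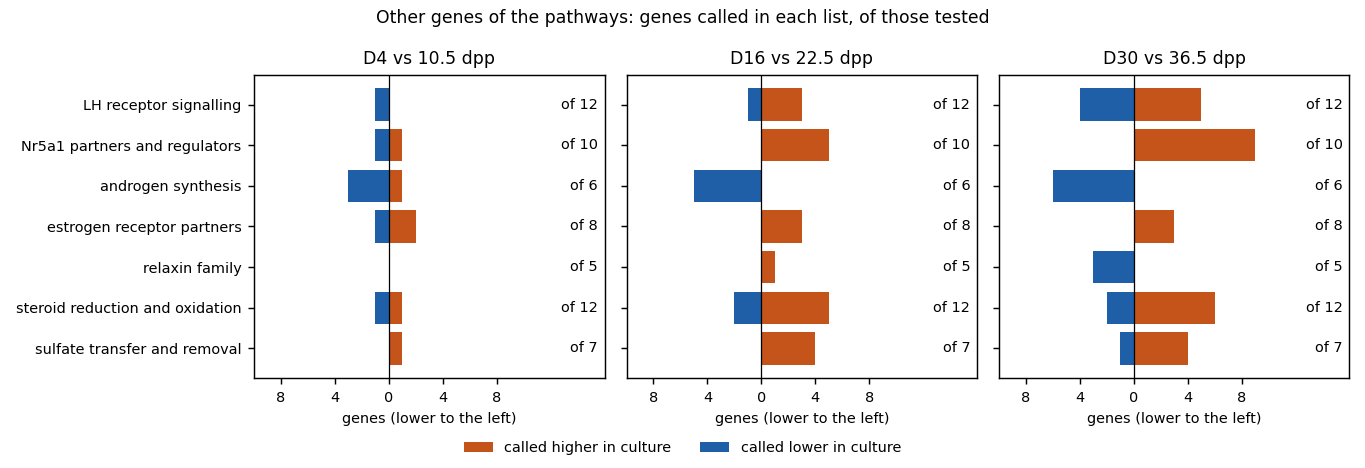
Number of genes called at adjusted p under 0.05 in each of 7 pathway lists at D4, D16 and D30 against the matched age (horizontal axis, genes; higher in culture to the right, lower to the left), with the number tested at the right. Genes of androgen synthesis are called lower at D16 and D30, and partners and regulators of Nr5a1 higher. Of all genes tested, 4.92% were called higher and 3.18% lower at D4, 14% and 11.8% at D16, and 32.4% and 35% at D30.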

How the data were processed

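The authors aligned 50-base single-end reads of stranded poly(A) libraries to GRCm38 with STAR 2.7.3a and counted them per gene with HTSeq 0.12.4 in the mode intersection-nonempty, and deposited the raw counts, with no normalization. The strand setting is not given in the sources used here. NCBI gene IDs were matched to RefSeq symbols (27373 of 27466). CPM are counts per 1000000 of the library total. RPKM uses the joined exon length of the GENCODE annotation of GRCm38.

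Tests used edgeR 4.0.16 quasi-likelihood F tests with TMM factors and filterByExpr, in 1 fit of 7 stages over 21 libraries, and a second fit with freezing added. P-values were adjusted by Benjamini-Hochberg over 19255 genes, and 0.05 was the threshold. Errors are standard errors of log2 fold changes or SDs of levels. The scripts were tested on simulated data. Groups with at most 3 counts in each library are given as a ratio of pooled counts with a 95% exact (Clopper-Pearson) interval. The study tested with DESeq2, which was run as an alternative (version 1.42.0).

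The 8 genes, the gene lists and the tests were chosen with earlier results of these data known. Named list genes are, for each list, the called gene with the smallest p in each direction at each matched age. Marker genes are named where a result is set beside them, and the 3 genes closest to each member by Pearson's r (log2 CPM, prior count 2). Gene set tests were not run. The tested alternatives were RLE factors, library totals, no filter or at least 1 CPM in 2 libraries, DESeq2, adding 6.5 dpp fresh replicate 1, fresh libraries alone, the compared groups alone, the study's threshold (a log2 fold change of at least 2 and an adjusted p of at most 0.001), leaving out each library, a replicate block, and TMM-scaled levels. Leaving out 6.5 dpp CSF replicate 3 and D30 fresh replicate 3 together was added after seeing the data.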

Additional observations from a re-analysis of the deposited data

Results flagged for a closer look

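Chance flags about 1 in 20 groups of a stage, and 16 groups of 4 libraries were checked. Lhcgr at D30 stood out: D30 fresh replicate 3 held 28.7 CPM where the other 3 libraries held 5.30 to 8.69 CPM, and the gap was 0.855 of the whole range.

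The difference between culture and the matched age was itself different between ages in 6 cases by the edgeR contrast of contrasts. The log2 difference at D16 minus that at D4 was -1.61 for Srd5a1. At D30 minus D4 it was 1.65 for Nr5a1 and -4.33 for Sult1e1, and at D30 minus D16 it was -2.14 for Cyp19a1, 1.34 for Srd5a1 and -3.49 for Sult1e1.

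The library left out, 6.5 dpp fresh replicate 1, held Cyp19a1 at 3.12 CPM and Sult1e1 at 0.563 CPM, above the other 6.5 dpp libraries, which held at most 0.0973 and 0.0705 CPM. It also held the lowest level of the 6.5 dpp libraries in the 6 other genes, with Insl3 at 0.836 CPM and Esr1 at 4.91 CPM.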

How the results depend on the processing

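Over 13 comparisons, 8 genes and the alternatives, 3210 log2 fold changes were computed again at the 0.05 threshold: 3089 kept their side of the threshold, 65 calls were lost, 56 were gained and 0 calls turned direction. At the study's threshold the members called numbered 0 at D4, 0 at D16 and 3 at D30 against the matched age, 2 from 10.5 to 22.5 dpp, 2 from 22.5 to 36.5 dpp, 0 from 6.5 dpp to D4, 0 from D16 to D30, 0, 1 and 0 for the differences D16 minus D4, D30 minus D4 and D30 minus D16, and 1, 4 and 15 list genes at the 3 matched ages. Of all 19255 genes, this threshold called 133 higher and 73 lower at D4, 217 and 56 at D16, and 1488 and 2613 at D30. It called 2917 and 620 from 10.5 to 22.5 dpp, 1707 and 199 from 22.5 to 36.5 dpp, 316 and 149 from 6.5 dpp to D4, and 1 and 0 from D16 to D30. Few genes of any kind passed it at D4 and D16. With only the compared groups in the fit 2 members were called at D16 against 22.5 dpp, 0 from D16 to D30 and 3 for D16 minus D4, and 34 list genes at D4 and 11 at D16 (13 and 29 in the full fit). Fresh libraries alone gave 1 from 6.5 dpp to D4 and 2 for D16 minus D4. Library totals gave 2 for D16 minus D4 and 5 for D30 minus D16, and DESeq2 2 for D16 minus D4 and 5 for D30 minus D4. Without 6.5 dpp CSF replicate 3 and D30 fresh replicate 3 together the counts were 2 from D16 to D30 and 2 for D16 minus D4. With 6.5 dpp fresh replicate 1 added, 0 members were called at D4, 2 at D16, 3 from 22.5 to 36.5 dpp, 0 from 6.5 dpp to D4, 0 from D4 to D16, 0 from D16 to D30 and 1 for D30 minus D16, and 3 and 17 list genes at D4 and D16. The share of all genes called in that fit is not given here, so these counts are not particular to the members. Leaving out 1 library gave 1 to 2 members at D4 and 2 to 5 at D16 against the matched age, 1 to 3 from D4 to D16, 0 to 2 from D16 to D30, 1 to 2 for D16 minus D4 and 1 to 4 for D30 minus D16, and 7 to 16 list genes at D4 and 8 to 35 at D16. For the fits that left out 1 library, or 2 together, the shares of all genes called are not given here either. The causes were not tested.

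Samples with the same replicate number did not deviate together on the median (64 pairs, r from -0.528 to 0.661, median 0.00863, against -0.682 to 0.682 and a median of -0.00689 for 123 other pairs), so no sign of pairing by number was seen. With few libraries in each stage and single pairs spread this widely, the check cannot exclude pairing. With the replicate number as a block, 2, 3 and 6 members were called at D4, D16 and D30 against the matched age, 0, 6 and 5 along the in vivo steps, 2, 3 and 1 along the culture steps, 1, 2 and 3 for the differences D16 minus D4, D30 minus D4 and D30 minus D16, 0 for freezing, and 11, 26 and 42 list genes. The share of all genes called with the block is not given here, so it is not shown whether these counts are particular to the members. The calls lost under the block were Insl3 at D16 (adjusted p = 0.0502) and Sult1e1 from 6.5 dpp to D4 (0.0533), both by edgeR.

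Of all genes, edgeR called 220 from 6.5 to 10.5 dpp and DESeq2 647, and 0 were called with the compared groups alone. The compared groups alone gave 6465 genes at D4 (1559 in the full fit), 1687 at D16 (4967) and 0 from D16 to D30 (345, and 719 by DESeq2), and 4923 for D16 minus D4 (1851, and 2905 by DESeq2). For D30 minus D16 they gave 1510 genes and library totals 6594 (3867). Fresh libraries alone gave 6 genes from 6.5 to 10.5 dpp and 977 from 6.5 dpp to D4 (4028). TMM-scaled levels kept the highest and the lowest stage of 7 of the 8 genes, and 20 of the 24 closest genes stayed with 6.5 dpp fresh replicate 1 added. Low counts limit Cyp19a1 before 22.5 dpp and at D4 and Sult1e1 up to 10.5 dpp.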
